A study of Bos taurus with 12 samples.

Results

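Of the 74459 regions formed by joining the MBD-seq peaks of 12 single libraries on chromosomes 1 to 29, 909 (1.22%) held a peak in all 4 libraries of high methylated DNA and all 4 of medium methylated DNA and in none of the 4 of low methylated DNA. Peaks with 1 bp or more in common were joined. The regions were chosen by the presence or absence of a called peak, so their presence at the high and medium levels and their absence at the low level are not a finding. A further 5531 regions had a peak in the same 8 libraries and in 1 to 4 low libraries, which made 6440 regions called in all 8, and the 909 were 14.1% of them.

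The DNA came from longissimus muscle of Angus steers of about 1 year of age, contemporaries on the same diet, that had been ranked by the shear force of the aged meat. Tender beef (TE, low shear force) and tough beef (TO, high shear force) were sampled, with 2 animals in each group, picked at random from the 4 at that extreme, and the tissue was taken fresh. HTE and HTO are the high methylated DNA of tender and tough beef, MTE and MTO the medium and LTE and LTO the low methylated DNA, and each of the 6 conditions has 2 libraries, numbered 1 and 2. All 12 libraries passed the same capture, and no animal was treated. Whole muscle holds fat, vessel and connective tissue cells beside muscle fibres, and their shares were not measured here.

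MBD-seq shears genomic DNA, binds the pieces that carry methylated CpGs with a methyl-CpG binding domain protein, and sequences what is released. A piece with many methylated CpGs is held more tightly than a piece with few, so a stepwise change of salt splits the captured DNA by the density of methylated CpGs. In mammals most CpGs are methylated, while CpG islands at active promoters usually are not. The sources disagree on which salt concentration released the high methylated DNA, so the levels are named here as the labels name them. A region of this set had a called peak in single libraries of 2 of the 3 fractions only. This does not show that its pieces were absent from the low fraction.

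Peaks had been called on 3677473 to 4843388 tags per high library, 5969045 to 6886676 per medium library and 5770411 to 7981292 per low library, counted after duplicates were removed. The low libraries thus had more tags than any high library. On chromosomes 1 to 29 there were 10178 to 12784 peaks in a high, 23982 to 35688 in a medium and 9555 to 28599 in a low library. The 2 LTE libraries held the fewest low peaks, 9555 and 16881, against 27783 and 28599 in LTO.

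The edge of the rule was set mostly by the low libraries of tough beef. Of the 742 regions called in all 8 high and medium libraries and in a single low library, 436 had that low peak in LTO_2, 266 in LTO_1, 29 in LTE_2 and 11 in LTE_1. The low peak of these 742 regions had a median fold enrichment of 5.38 and a median −log10 q of 5.52, well inside the threshold of 2 at which the authors kept a peak. Leaving LTO_2 out of the rule gave 1344 regions and leaving LTO_1 out gave 1177, whereas leaving out LTE_1 or LTE_2 gave 920 or 939. On the other side, 639 regions had a peak in 7 of the 8 libraries and in no low library, and the missing library was most often HTO_1 (173 regions), the library with the fewest tags. Among the 909, the weakest of the 8 peaks had a median −log10 q of 6.39, and 4 regions had a weakest peak of 3 or less. When the 9555 strongest peaks of every library were used, the rule kept only 315 regions, and 85 of the 909 shared a base with them, so the set changed with the length of the peak lists.

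The lists called on merged reads show how far the absence at the low level held at greater depth. The authors had also merged the 2 replicates of each condition, which gave 11586162 tags in LTE and 13191401 in LTO. Of the 909 regions, 128 (14.1%, Wilson 95% interval 12.0 to 16.5%) overlapped a peak of the merged LTE list and 453 (49.8%, 46.6 to 53.1%) a peak of the merged LTO list. Either list had a peak in 487 regions (53.6%, 50.3 to 56.8%), both had one in 94, and 422 regions (46.4%) had a low peak in neither. These intervals cover counting error only. The merged reads are those of the libraries that the rule used, so the shares describe the set and test nothing.

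The merged low peaks at these regions were weaker than the merged peaks of the other levels. The rule asked for a peak in every high and medium library and for none in a low library. This order therefore follows from the rule and is not a finding. The median fold enrichment was 5.18 in LTE and 4.73 in LTO where a peak was called, against 12.2 for HTE, 11.4 for HTO, 8.40 for MTE and 8.60 for MTO, where 908, 909, 908 and 909 of the 909 regions had a peak. The larger share in LTO was seen elsewhere too. Among 626 regions called in all 4 medium libraries and no other, 25.9% had a peak in merged LTE and 59.4% in merged LTO. Of the 742 regions with a peak in a single low library, 98.9% had one in a merged low list. By contrast, the 59 regions called in all 4 high libraries and in no other had no merged low peak, which allows a share of up to 6.11% (upper Wilson 95% bound).

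**Figure D1:**
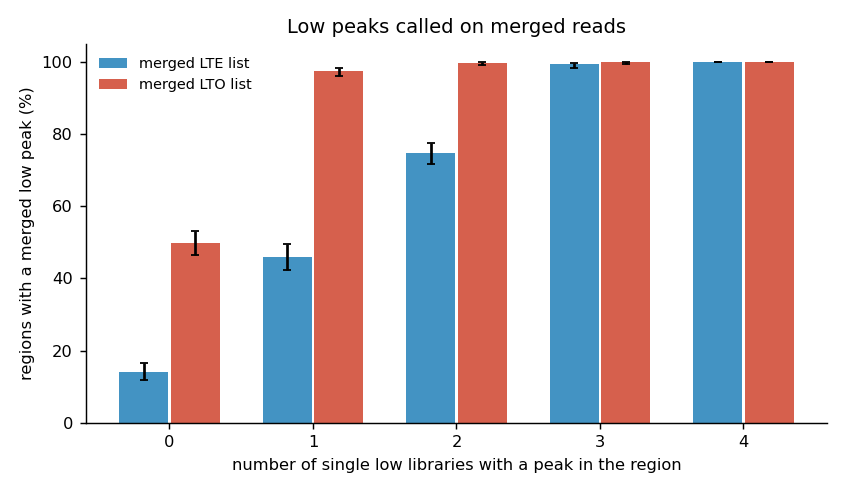
Share of regions (y axis, %) that overlap a peak of the merged LTE list (blue) or the merged LTO list (red), by the number of single low libraries with a peak (x axis), for regions called in all 8 high and medium libraries. Bars are shares and whiskers Wilson 95% intervals. At 0 low libraries the shares are 14.1% and 49.8%, and from 3 low libraries on both are above 99%.

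The regions were short and carried few tags. The joined region was 465 bp wide at the median (214 to 1514 bp), 37 regions reached 1000 bp, and together they covered 474 kb. In 720 of the 909 each of the 8 libraries had exactly 1 peak. The median pileup, the number of extended tags over the summit, was 17 in HTE_1, 22 in HTE_2, 14 in HTO_1, 18 in HTO_2, 16 in MTE_1, 17 in MTE_2 and 15 in each MTO library. Since at most 1 tag per position was kept, a pileup cannot exceed 2 fragment lengths, and the medians stood at 3.45 to 5.82% of that ceiling. In the 3174 regions called in all 12 libraries the medians were 160 to 203 tags, on average 43.1% of the ceiling in the high and 57.6% in the medium libraries.

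The local background separated these 2 kinds of region. MACS2 divided the pileup plus 1 by the background plus 1, and from this the background in tags was recovered for each peak. In every library its lowest value equalled, to 4 significant digits, the genome-wide background computed from tags, fragment length and genome size. The median local background of the 909 regions was 2.33 to 3.28 times the genome-wide background, depending on the library, against 114 to 146 times in the regions called in all 12. In 829 of the 909 regions the mean pileup over the 8 libraries was under 50. The others lay in stretches of dense tags, and the highest median local background was 412 times the genome-wide value. Regions called in all 8 and in 1 low library had medians of 2.05 to 2.91 times the genome-wide background, and overlapped the 909 in this measure.

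**Figure D2:**
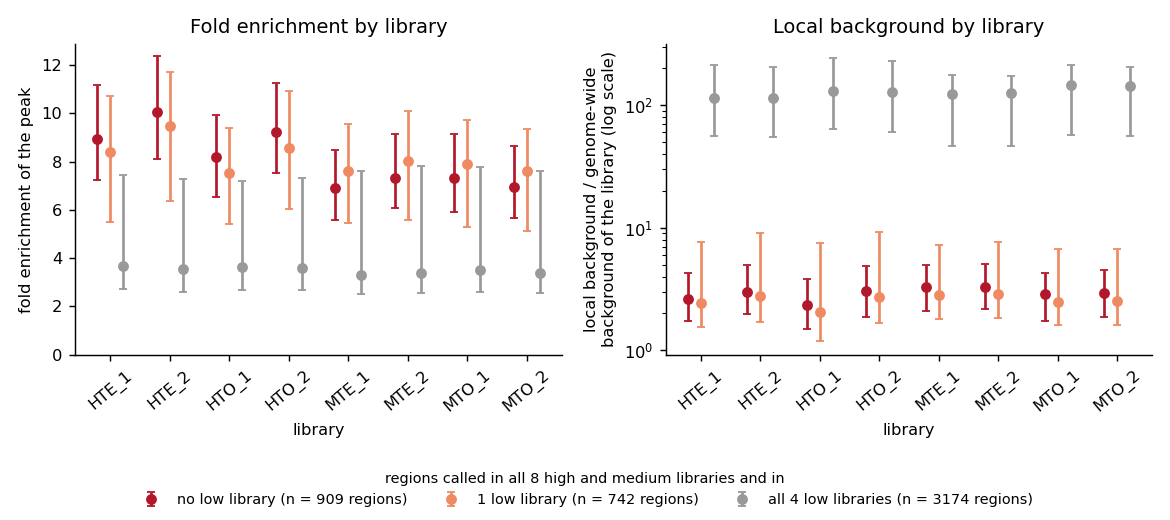
Fold enrichment (left) and local background relative to the genome-wide background of the library (right, log scale) in the 8 high and medium libraries (x axis), for the 909 regions (red), 742 regions with a peak in 1 low library (orange) and 3174 with a peak in all 4 low libraries (grey). Points are medians over regions and bars the interquartile range. The red points are at 8.18 to 10.1 in the high and 6.93 to 7.33 in the medium libraries.

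Peaks at these regions were narrower than at regions called in all 12 libraries. The median peak width was 291 and 343 bp in the HTE libraries, 296 and 323 in HTO, then 293 and 297 for MTE and 305 and 312 for MTO. The regions called in all 12 had medians of 357 to 442 bp. All 8 libraries had the narrower peaks at the 909 regions, by 94.6 bp on average (two-sided exact sign-flip test over 8 libraries, p = 0.00781, which is as low as 8 libraries go, adjusted p = 0.0469 by Benjamini-Hochberg over 6 tests). The 8 libraries come from 4 animals and are not independent. The rule dropped any region that shared 1 bp with a low peak, and a wide region shares a base more readily. The narrower width is therefore not independent of the rule, and the part of the rule in it was not tested. Against the 742 regions with 1 low library there was no such difference, with a mean of 0.31 bp (exact sign-flip test, p = 0.992), a comparison added after the data were examined. There the 909 regions had the wider peaks in all 4 high libraries and the narrower ones in all 4 medium libraries. Between levels the widths of 313 ± 24.3 bp (SD, n = 4) in the high and 302 ± 8.46 bp in the medium libraries overlapped (exact permutation test, p = 0.486, adjusted p = 0.667). A peak cannot be shorter than the fragment length of its library, 179 to 203 bp in the high and 146 to 175 bp in the medium libraries, and after that length was taken off, the peaks of the medium libraries were the wider by 23.8 bp (exact permutation test, p = 0.114).

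The summits of the high and medium libraries fell close together. The median summit position of the 4 high libraries lay within 100 bp of that of the 4 medium libraries in 752 of the 909 regions (82.7%), and the 2 were 34 bp apart at the median. Within a level the 4 summits spread over 76 bp at the high and 118 bp at the medium level. The corresponding distance between levels was 19.5 bp in the regions called in all 12 libraries and 32.8 bp in those with 1 low library.

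The comparison of the high with the medium fraction asks in which of the 2 fractions these regions stood out more over their surroundings. This difference was not itself part of the rule. The rule did ask for a called peak in every high library, each with fewer tags than any medium library, and for no low peak. It can therefore shape the difference, in the medians and region by region, and its part was not tested. Although the adjusted p missed 0.05, fold enrichment at the 909 regions had a higher median in every high than in every medium library. Its median over the regions was 8.95 in HTE_1, 10.1 in HTE_2, 8.18 in HTO_1 and 9.24 in HTO_2, and 6.93 in MTE_1, 7.31 in MTE_2, 7.33 in MTO_1 and 6.93 in MTO_2. The lowest high library, HTO_1, still lay above the highest medium library, MTO_1. The means of these medians were 9.11 ± 0.78 (SD, n = 4) and 7.13 ± 0.23, a difference of 0.35 on the log2 scale (exact permutation test, two-sided, p = 0.0286, which is as low as 4 libraries against 4 go, adjusted p = 0.0857). Without MTE_1 or without MTO_2 the difference was 0.34 and the exact permutation p 0.0571. The 8 libraries are fractions of DNA from 4 animals, so they are not independent. With libraries matched by beef and number, the exact sign-flip p was 0.125, as low as 4 pairs go. Over the 742 regions with 1 low library, the means of the library medians were 8.49 in the high and 7.79 in the medium libraries.

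Region by region, 338 of the 909 (37.2%) were higher and 6 (0.66%) lower in the high than in the medium libraries, by limma on log2 fold enrichment fitted to all 6440 regions called in the 8 libraries, at an adjusted p under 0.05. Over all 6440 regions, 22.6% were called higher and 7.48% lower. The 338 had a median difference of 0.63, and the 909 a median of 0.29 with a median SE of 0.13, against 0.09 over all fitted regions. Of the 909, 743 had a difference above 0. In 304 regions (33.4%) all 4 high libraries lay above all 4 medium libraries and in 5 (0.55%) all lay below, against 25.9% and 7.03% of all fitted regions. Among regions of mean pileup under 50, a setting added later, 305 of 829 members were called higher and 5 lower, where the background was 18.2% and 8.26%. Centring each library on its median left 225 members (24.8%) called higher and 10 (1.10%) lower, against 7.97% and 9.67% of all fitted regions, whose balance thereby turned. Fold enrichment without the pseudocount of MACS2 gave 529 (58.2%) and 1 (0.11%), against 30.6% and 5.17%.

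The larger share of members called higher was not seen on scales that leave out the local background. By pileup per 1000000 tags, 66.2% of the members and 66.3% of all fitted regions were called higher in the high libraries. By pileup over the genome-wide background the shares were 49.3% and 52.7%. Lower calls remained fewer among the members on both scales, at 0.33% against 3.39% and at 2.20% against 14.9%. With fewer libraries the calls fell among the members and among all fitted regions. Members called in total fell from 344 to 197 (21.7%) without MTE_1, 219 (24.1%) without MTE_2 and 204 (22.4%) without MTO_2, where 11.7%, 14.2% and 11.7% of all fitted regions were called.

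The shift towards the high fraction was set beside that of regions that also had low peaks. Libraries were matched by beef and number, although the sources used here do not say whether a number marks the same animal at both levels. The median difference between the high and the medium library over the 909 regions was 0.34 for HTE_1 and MTE_1, 0.39 for HTE_2 and MTE_2, 0.13 for HTO_1 and MTO_1 and 0.36 for HTO_2 and MTO_2. Over the regions called in all 12 libraries it was 0.11, 0.02, 0.04 and 0.07. The difference was larger at the 909 regions in 4 of 4 pairs, by 0.24 on average (exact sign-flip test, p = 0.125, as low as 4 pairs go, adjusted p = 0.25). Pileup and local background, given above, moved with this difference, and their part was not tested. Regions with 1 low library, whose pileup was like that of the 909, had 0.17, 0.15, 0.04 and 0.16 in the same pairs, and 20.9% of them were called higher and 2.83% lower in the high libraries.

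**Figure D3:**
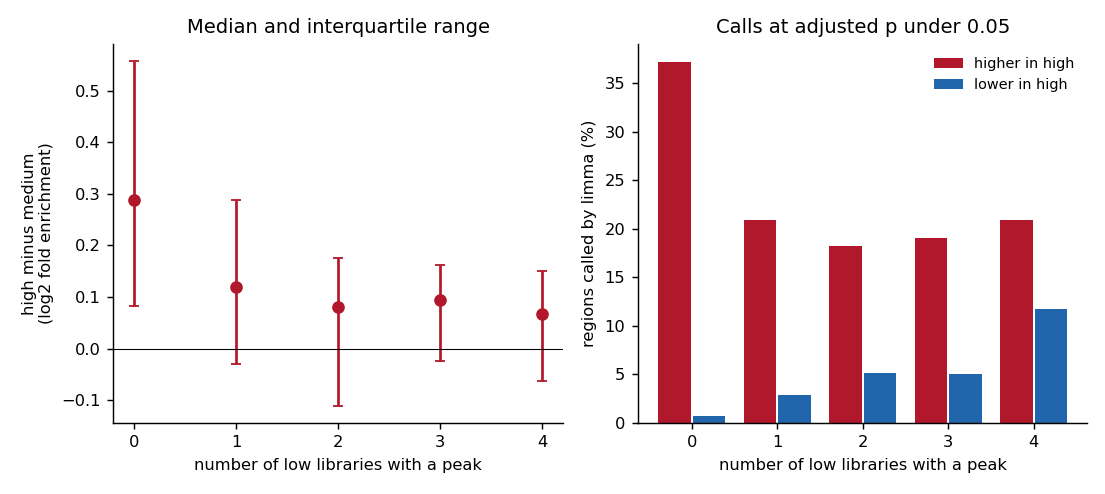
High minus medium log2 fold enrichment (left, median and interquartile range over regions) and share of regions called higher (red) or lower (blue) in the high libraries by limma at an adjusted p under 0.05 (right), by the number of low libraries with a peak (x axis). At 0 low libraries the median is 0.29, with 37.2% called higher and 0.66% lower, and at 4 the values are 0.07, 21.0% and 11.8%.

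The 3 regions with the largest called excess in the high fraction lay in the distal 10% of their chromosomes, 3.28, 6.52 and 1.16 Mb from the end in the order given here. On chr25:39625331-39625836 (coordinates of bosTau8, as in the files) the fold enrichment was 18.5, 20.1, 18.9 and 20.2 in HTE_1, HTE_2, HTO_1 and HTO_2, and 6.99, 6.38, 8.52 and 5.66 in MTE_1, MTE_2, MTO_1 and MTO_2 (log2 difference 1.51, SE 0.13, limma adjusted p = 0.00280). All high libraries stood above all medium libraries there, and the nearest region with a low peak was 0.541 kb away. On chr5:114664946-114665457 the values were 15.5, 19.5, 17.0 and 19.1 in the high and 4.82, 8.29, 6.77 and 6.60 in the medium libraries in the same order (1.45, SE 0.18, limma adjusted p = 0.00587). On chr20:70883045-70883582 they were 19.5, 15.8, 17.7 and 18.2 against 7.98, 8.01, 5.54 and 5.08 (1.45, SE 0.08, limma adjusted p = 0.00236). None of the 3 overlapped a merged low peak, and their local background was 4.14 to 4.63 times the genome-wide one.

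The 6 regions lower in the high fraction were the exception, and the 3 with the largest difference had little background around them. On chr15:78659599-78659913 the fold enrichment was 7.89, 7.33, 6.22 and 7.82 in the high and 12.9, 12.7, 9.77 and 14.4 in the medium libraries (log2 difference −0.76, SE 0.14, limma adjusted p = 0.0161), and the levels did not overlap. On chr15:24288186-24288634 the values were 8.39, 11.5, 6.22 and 8.52 against 13.7, 15.3, 16.7 and 10.9, so HTE_2 lay above MTO_2 (−0.73, SE 0.19, limma adjusted p = 0.0376). On chr3:36546687-36547081 they were 9.15, 10.3, 5.44 and 7.75 against 11.4, 17.2, 12.1 and 11.4 (−0.70, SE 0.17, limma adjusted p = 0.0306). Each of the 3 had a merged low peak, with a fold enrichment of 5.13 and 4.68 in LTO for those on chromosome 15 and of 6.23 in LTE for that on chromosome 3. Their local background was 1.00 to 1.41 times the genome-wide one.

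Across the 909 regions the excess in the high fraction, the local background, the position and the merged low peaks varied together. Of the 303 regions with the lowest local background (up to 2.19 times the genome-wide value), 43 were called higher in the high libraries, with a median log2 difference of 0.12, and 65.3% had a merged low peak. Of the 303 with the highest (from 3.78 times), 175 were called higher, with a median of 0.43, and 45.2% had a merged low peak. Fold enrichment in the medium libraries fell along this order from 8.85 to 5.66, and in the high libraries from 9.64 to 8.16. The local background is the divisor of fold enrichment and was recovered from it. These groups of 303 regions were thus cut on a part of the value compared, and the link is partly built in. The pseudocount weighs most where the background is low, and its part in the difference between the groups was not tested. Of the 422 regions without any merged low peak, 190 (45.0%) were called higher in the high libraries and none lower. Of the 487 with such a peak, 148 (30.4%) were called higher and 6 lower. Over all 6440 fitted regions 22.6% were called higher and 7.48% lower, and these shares were not split by local background or merged low peaks. The splits of the 909 share the same libraries and are descriptions.

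The 5 regions called most strongly at both levels were not free of low peaks on merged reads. Their distance to the nearest region with a peak in a low library ran from 1.96 kb (chr1:122701329-122701760) to 186 kb (chr24:18508871-18509247). The region with the highest minimum over the 8 libraries, chr10:6378126-6378527, had a fold enrichment of 19.2 and 20.7 in the HTE libraries, 13.6 and 21.8 in HTO, then 12.2 and 14.5 for MTE and 15.7 and 12.8 for MTO. Its high and medium libraries overlapped, and the merged LTO list had a peak of 7.48 there. Next came chr24:61611172-61611689, with 16.5 in both HTE libraries, 16.1 and 13.6 in HTO, then 12.7 and 11.6 for MTE and 13.2 and 12.3 for MTO, where every high library exceeded every medium library (log2 difference 0.33, SE 0.07, limma adjusted p = 0.0214). The values of chr10:84926095-84926471, chr24:18508871-18509247 and chr1:122701329-122701760 ranged from 11.4 to 16.5, from 11.4 to 14.4 and from 10.8 to 18.7. All 5 overlapped a peak of the merged LTO list, of 4.75 to 7.48, and the last also a peak of 6.14 in merged LTE. A fold enrichment of 10 or more was reached in all 4 high libraries at 127 of the 909 regions and in all 4 medium libraries at 29.

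The 3 widest regions, by contrast, had no merged low peak. They were chr24:3840796-3842309 (1514 bp), chr11:103970690-103972178 (1489 bp) and chr12:90404918-90406374 (1457 bp). In the first, the fold enrichment was 7.79 and 7.87 in the HTE libraries, 6.97 and 8.05 in HTO, then 5.52 and 5.32 for MTE and 5.92 and 4.62 for MTO. In the second it was 7.05 to 8.94 in the high and 5.28 to 6.45 in the medium libraries, and in the third 5.86 to 7.07 and 4.44 to 5.09. In each, all high libraries lay above all medium libraries, with log2 differences of 0.52 (SE 0.09), 0.41 (SE 0.07) and 0.43 (SE 0.06) and limma adjusted p of 0.0140, 0.0114 and 0.00840. Their local background was 6.45, 6.98 and 9.95 times the genome-wide one.

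Most of the 909 regions had a region with a low peak within 10 kb. The nearest region with a peak in a low library was 6.71 kb away at the median, within 1 kb for 168 regions (18.5%) and within 10 kb for 573 (63.0%). For the 3174 regions called in all 12 libraries, the nearest region with a low peak outside that class was 1.63 kb away at the median. It was within 1 kb for 38.7% of them and within 10 kb for 73.5%. The 3174 hold low peaks themselves, and their own class was left out of this distance but counted for the 909. These distances are thus to unlike sets, and their order is not a finding. Of the 909, only 9 lay more than 100 kb from any region with a low peak. The 3 farthest were chr11:24263450-24263770, at 317 kb, with a fold enrichment of 10.7 to 15.6 over the 8 libraries, chr9:57862936-57863338, at 228 kb, with 7.77 to 13.6, and chr13:51003999-51004391, at 227 kb, with 6.22 to 12.3. The one on chromosome 9 nevertheless had the highest merged low peak of all 909, with a fold enrichment of 9.20 in LTO, and the other 2 had none. The next highest were chr9:14869291-14869748, with 8.72 in LTE and 5.75 in LTO, and chr27:40499949-40500332, with 8.05 in LTO and 5.61 in LTE.

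Bovine autosomes are acrocentric, so position 1 lies at the centromere side and the last position at the distal telomere side. The 909 regions gathered at the distal side. Of them, 440 (48.4%, Wilson 95% interval 45.2 to 51.7%, counting error only) lay in the distal 10% of their chromosome, measured to the last peak of any list, and 93 (10.2%) in the proximal 10%. Of all 74459 joined regions 28.1% lay in the distal 10%, and of the 5531 with low peaks 18.3%. Among those of the 5531 with a mean pileup under 50 the share was 25.6%, and among the 742 with 1 low library 31.3%. The nearest share was that of the 626 regions called in all 4 medium libraries and no other, at 39.3%, with 30.2% in the last 5 Mb, and the share of the 909 was above it on 18 chromosomes and below it on 11. The share of the 909 was above that of the 5531 on 28 of 29 chromosomes, above that of all joined regions on 26, and above that of the regions with 1 low library on 23 with 5 below. The last 5 Mb held 361 of the 909 (39.7%), against 10.1% of the 5531 and 20.5% of all joined regions. These are counts of 1 set of regions, with no test over libraries. Without LTO_1 or LTO_2 the share was 42.8 or 44.1%, and with the 9555 strongest peaks of every library it was 24.1%.

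**Figure D4:**
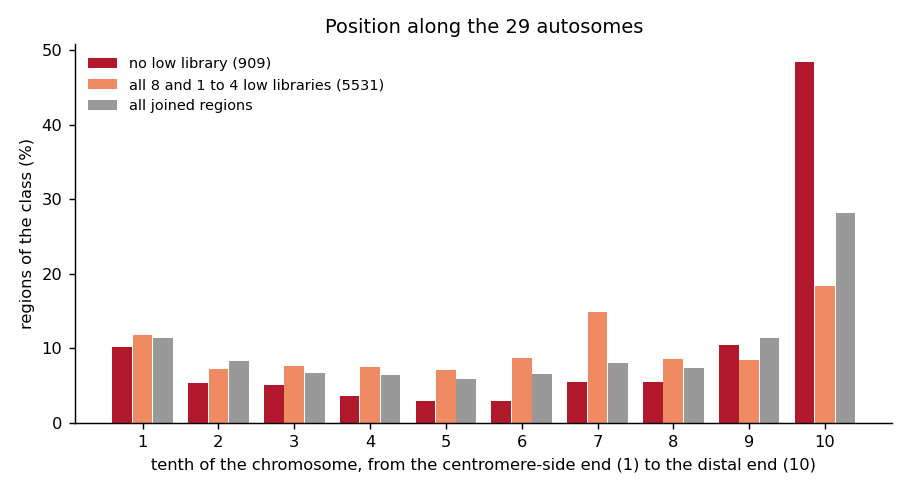
Share of regions (y axis, % of each class) in 10 equal parts of the chromosomes (x axis, from the centromere side to the distal end), for the 909 regions (red), the 5531 called in the same 8 libraries and in low libraries (orange) and all 74459 joined regions (grey). The last bar of the 909 stands at 48.4%, against 18.3% and 28.1%.

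The distal regions and the others differed in the high to medium comparison, the merged low peaks and the local background. Of the 440 regions in the distal 10%, 199 (45.2%) were called higher in the high than in the medium libraries, and 139 (29.6%) of the other 469. The median log2 difference was 0.39 and 0.19. Over all 6440 fitted regions 22.6% were called higher, and that share was not split by position. A merged low peak was found in 45.0% of the distal and 61.6% of the other regions, although the merged lists hold reads of libraries that the rule used. Of the 422 regions without any merged low peak, 57.3% were distal. The local background was 3.27 and 2.52 times the genome-wide one at the median.

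The chromosomes differed widely. There were 9.79 of these regions per 10 Mb on chromosome 25, 8.03 on chromosome 18, 7.05 on chromosome 27, 6.85 on chromosome 23 and 6.06 on chromosome 24, against 3.62 over all 29 chromosomes. Chromosome 28 had 1.08 (5 regions) and chromosome 2 had 1.46 (20 regions). Chromosome 18 had the most, 53 regions, 29.9% of its regions called in all 8 libraries, against 14.1% over all 29 chromosomes. On chromosome 25, where regions called in all 8 stood at 48.9 per 10 Mb, that share was 20.0%. It was 23.9% on chromosome 24 and 11.3% on chromosome 2. On chromosome 23 that share was 32.1%, and on chromosomes 28, 8 and 27, where regions called in all 8 numbered 132, 558 and 449, it was 3.79, 5.38 and 7.13%. The distal share also varied, from 87.9% on chromosome 5 (29 of 33 regions) to 12.5% on chromosome 27 (4 of 32). On chromosome 14 the proximal 10% held 19 of 40 regions and on chromosome 24 it held 13 of 38.

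**Figure D5:**
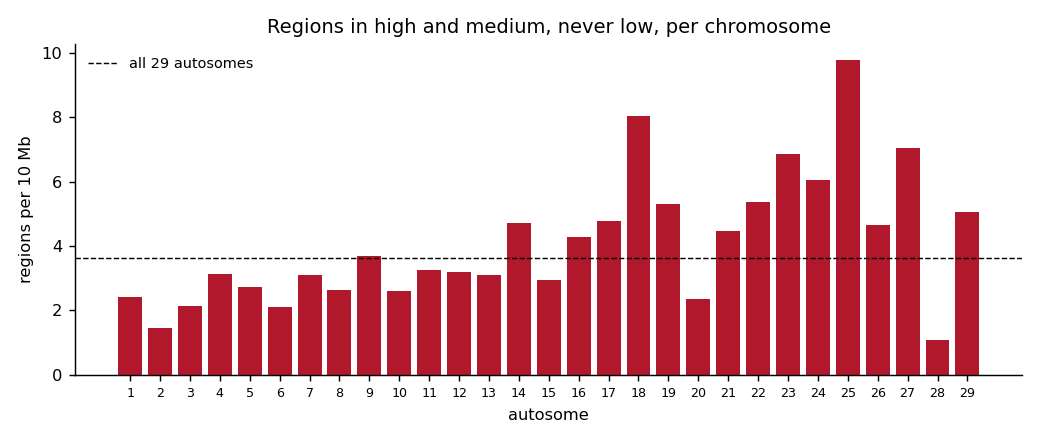
Number of the 909 regions per 10 Mb (y axis) on each of the 29 autosomes (x axis), with the value over all autosomes as a dashed line at 3.62. Chromosome 25 has the highest bar, at 9.79, and chromosome 28 the lowest, at 1.08.

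The regions mostly stood alone. The nearest other member was 189 kb away at the median, and 678 of the 909 had none within 50 kb. In 18 runs at least 3 members followed each other at gaps of up to 50 kb, 61 members in all. The longest run held 6 members in 103 kb, on chr1:155714357-155817147. The 3174 regions called in all 12 libraries were 0.795 kb from the nearest of their kind at the median.

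No difference between tough and tender beef was detected at these regions. At the high level the medians of fold enrichment were 9.51 ± 0.79 (SD, n = 2) in HTE and 8.71 ± 0.75 in HTO, and 1 of the HTO libraries lay between the HTE libraries (log2 difference −0.13, two-sided exact permutation test, p = 0.667). At the medium level they were 7.12 ± 0.27 in MTE and 7.13 ± 0.28 in MTO, a log2 difference of 0.00 (exact permutation test, p = 0.667). The lowest p that this permutation test can return for 2 animals a group is 0.333. By limma with the spread shared over the 4 groups, 0 of the 909 regions passed an adjusted p of 0.05 in the high and 0 in the medium libraries, and 0 of all 6440, a background of 0%. The smallest adjusted p of a member was 0.273 and 0.187. At an unadjusted limma p under 0.05 there were 102 (high) and 118 (medium) of the 909, beside 8.7% and 14.4% of all fitted regions. The median SE of a member's tough minus tender difference was 0.19 on the log2 scale. The difference of tough minus tender between the levels passed in 0 regions as well, with 107 of the 909 at an unadjusted limma p under 0.05, beside 8.96% of all fitted regions. With pileup per 1000000 tags in place of fold enrichment, 72 of the 909 were called at the high level, 64 of them higher in tough, and 120 at the medium level, 104 of them higher in tough. These are 7.92% and 13.2% of the 909, whereas 28.8% and 49.3% of all 6440 regions were called by that measure. The 2 tough libraries of each of these levels had fewer tags left than the tender ones, and the part of depth in these calls was not tested.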

How the data were processed

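MBD-seq of 12 libraries from 4 animals was used. After cleaning with SOAPnuke, the authors mapped reads on bosTau8 by BWA 0.7.7 (version per the submitters' processing notes), kept unique alignments and called peaks with MACS2 2.1.1.20160309 (single libraries) or 2.1.0.20150731 (merged replicates) at a q-value of 0.01 without a control library. No more than 1 tag a position was kept, and regional background was taken over 10000 bp. The deposited lists give pileup (a signal not divided by library size), fold enrichment (a ratio to local background with a pseudocount of 1), −log10 of the q-value, and each peak's length; their −log10 p-value was not used. The lists' headers give tags, the depth behind all values.

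Peaks were joined with Python 3.11.15, pandas 2.3.3 and numpy 2.4.6, checked against bedtools 2.31.1. The strongest peak of a library stood for it in a region. limma 3.58.1 (R 4.3.3) was fitted to log2 fold enrichment of 6440 regions with 4 group means and Benjamini-Hochberg adjustment, and tested on simulated data. Single values were compared by two-sided exact permutation or sign-flip tests (scipy 1.17.1). p-values measure the spread between libraries.

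The members, lists and tests were chosen with earlier results of these data known. Regions named are the 5 with the highest minimum fold enrichment, the 3 widest, the 3 with the largest called high-medium difference in each direction, the 3 farthest from a low peak and the 3 with the highest merged low peak; no region qualified for tough against tender. Chromosomes and the longest run were named after their values were seen. Alternatives were stricter q or fold enrichment, other joining, equal numbers of peaks, other scalings and single libraries left out. No genome of bosTau8 was used, so sequences, CpG content and genes were not analysed here.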

Additional observations from a re-analysis of the deposited data

Results flagged for a closer look

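Chromosome X lay outside the rule, which covers chromosomes 1 to 29. By the same rule 19 of its 1839 joined regions had a peak in all 8 high and medium libraries and in no low library, and 241 had a peak in all 8. These are a signal in data that no comparison used. In the median fold enrichment, pileup, width and local background of the 909 regions, no high or medium library stood apart from the other 3 of its level by Dixon's criterion.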

How the results depend on the processing

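Same-numbered libraries deviated together by r = 0.03 (HTE and MTE), 0.02 (HTO and MTO), 0.01 (HTE and HTO) and −0.01 (MTE and MTO) over the 909 regions, and by 0.03, −0.01, 0.14 and −0.02 over all 6440, so not every pair passed 0.1 and the block was kept as an alternative. The sources used here do not say whether a number marks the same animal in each fraction. With beef and replicate number together as a block, 277 of the 909 regions were called between high and medium. Of these, 273 were higher and 4 lower in high, 30.5% in all, against 1032 of all 6440 fitted regions. For libraries matched in this way, the exact sign-flip p of the median difference of 0.35 was 0.125. With the replicate number alone as a block, no call of tough against tender changed.

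The number of regions was 315 with equal numbers of peaks per library, and 920 to 1344 with a library left out. Stricter q, stricter fold enrichment, joining over 500 bp and a peak covering 50% of the region gave 920, 952, 822 and 696. The share with a merged low peak was 58.3% at a fold enrichment of 3 or more, 75.1% with 50% covered, 94.3% with equal numbers and 51.0 to 68.3% with a library left out (63.9% without LTO_1, 68.3% without LTO_2). The distal share was 37.5% with 50% covered. Calls of high against medium numbered 605 by pileup per 1000000 tags (66.6% of members, 69.7% of all fitted regions), 530 without the pseudocount (58.3% and 35.8%) and 468 by pileup over the genome-wide background (51.5% and 67.6%). With a library left out they numbered 197 to 277 (21.7 to 30.5% of members, 11.7 to 22.6% of all). Per 1000000 tags, tough against tender gave 72 calls at the high level (7.92% and 28.8%) and 120 at the medium level (13.2% and 49.3%), and over the genome-wide background 114 at the medium level (12.5% and 39.5%). The median of all fitted regions between high and medium was 0.09, and 0.62 per 1000000 tags. With a library left out, the median high-medium difference was 0.30 to 0.40, the excess over regions called in all 12 was 0.20 to 0.29, and widths differed by 1.58 to 18.9 bp (high minus medium).

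Tough minus tender at the high level turned to 0.055 per 1000000 tags and 0.018 without the pseudocount, and was −0.21 to −0.04 with a library left out. At the medium level it turned to −0.12 over the genome-wide background and was −0.038 to 0.042 with a library left out. Width, high minus medium, turned to −23.8 bp after the fragment length was taken off, and against regions with 1 low library the width difference was 0.31 bp. The causes of these changes were not tested. With 2 animals a group, the exact test of tough against tender could not reach 0.05.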
